A study of Mus musculus with 25 samples.

Results

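Markers of duct and simple epithelial cells were followed through mouse islet data by their gene symbols, 7 genes in all: the keratins Krt7, Krt8, Krt18 and Krt19, the membrane mucin Muc1, the ion channel Cftr and the adhesion molecule Epcam. They were set beside the 13097 genes that were high enough to be tested in at least 1 of 4 deposited tables, which take in 6 of the 7 and not Cftr. Messenger RNA came from mouse islets, each sample pooled from at least 3 mice, and 19 libraries in 8 groups were used. The libraries labelled flox/flox, HFD (n = 2) and BcBKO, HFD (n = 2) came from mice fed a high-fat diet for 3 months, where BcBKO names a beta-cell-specific ablation made with Pdx1-cre, a Cre driven by a promoter of pancreatic progenitors and beta cells. The group WT held 5 libraries. The libraries CTR_PBS, KO_PBS and KO_REG3B-Fc (n = 2 each) were controls given PBS, knockouts given PBS and knockouts given REG3B-Fc, named after the secreted lectin REG3B, and the labels do not name the knocked-out gene or the duration. The libraries db_GFP and db_REG3B (n = 2 each) carry the label db with GFP or REG3B, and the labels give no vector, dose or age.

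Values are FPKM, which count fragments relative to transcript length and to the size of the library, so that levels of different genes can be compared per length. The sequencing depth behind them is not given in the sources used here. Smarcd3, which encodes BAF60C, the protein in the study's title, measured 2.57 and 2.55 FPKM in the flox/flox libraries against 3.11 and 2.40 FPKM in those labelled BcBKO, and these levels do not set the libraries labelled BcBKO apart. Nothing in the labels says that the libraries of a group came from separate cohorts of mice, so p-values measure only the spread between these libraries. In the PBS and db tables replicates lay close together, with a robust SD of the log2 ratio of 0.0483 to 0.0847 for genes of at least 100 FPKM, against 0.281 in both HFD groups and 0.0901 to 0.874 between WT libraries. Before testing, libraries of a table were brought to a common median (median scaling), because the median gene shifted by -0.44 on the log2 scale in KO_PBS against CTR_PBS and by 0.53 in KO_REG3B-Fc against KO_PBS. Unless the deposited scale is named, changes below are log2 changes of FPKM + 1 relative to the median gene, with standard error (SE). They were tested with limma and adjusted over all genes tested in the comparison.

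Keratins are intermediate filament proteins that assemble only as pairs of a type I and a type II chain. Krt8 (type II) and Krt18 (type I) form the filaments of simple, single-layered epithelia, and duct-type epithelia add Krt7 (type II) and Krt19 (type I). Muc1 is a transmembrane mucin of the apical surface of secretory and duct cells. Cftr is the chloride and bicarbonate channel through which duct cells alkalinise pancreatic juice. Epcam mediates adhesion between epithelial cells, and in the pancreas islet cells carry it as well as exocrine cells.

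In the RefSeq annotation of GRCm38.p6, the build that the submitters' processing notes name, all 7 genes are protein coding. Krt7 (Entrez 110310, chr15:101412403-101427806, plus strand), Krt8 (16691, chr15:101996711-102004342, minus strand) and Krt18 (16668, chr15:102028216-102032026, plus strand) share a chromosome. Krt8 and Krt18 are neighbours transcribed away from each other, with 23873 bases and no protein-coding gene between their start sites, while 23 protein-coding genes lie between Krt7 and Krt8. Krt19 (16669, chr11:100140810-100145926, minus strand), Muc1 (17829, chr3:89229056-89233381, plus strand), Cftr (12638, chr6:18170687-18322770, plus strand) and Epcam (17075, chr17:87635979-87651127, plus strand) lie elsewhere. Krt8 has 1 annotated pseudogene by symbol, and Cftr overlaps an antisense gene over 18913 bases. How reads were split between such copies, and whether counting used strand, is not given in the sources used here, so the values of these genes carry that uncertainty.

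RefSeq promoter windows were matched for 6 of the 7 genes, all but Krt19. The 250 bases before the start site are shown for the 3 keratins of chromosome 15 and for Muc1. In KO_PBS against CTR_PBS, after median scaling, Krt8 and Krt18 were higher and Krt7 was lower. The Krt7 call was lost in some fits without 1 library, and Krt8 and Krt18 did not pass on the deposited scale (-0.021 and 0.08). After median scaling Muc1 had the largest log2 change of FPKM + 1 of the tested members in that comparison. By the fold of median-scaled FPKM, Krt19, which has no window, changed slightly more (2.33 against 2.21 for Muc1). Each window is written 5′ to 3′ on the strand of its gene in GRCm38.p6. The windows are chr15:101412153-101412402 for Krt7, chr15:102004343-102004592 for Krt8, chr15:102027966-102028215 for Krt18 and chr3:89228806-89229055 for Muc1. Capitals mark matches, on either strand, to the TATA box letters TATAAA, the GC box letters GGGCGG and the AP-1 letters TGANTCA.
Krt7: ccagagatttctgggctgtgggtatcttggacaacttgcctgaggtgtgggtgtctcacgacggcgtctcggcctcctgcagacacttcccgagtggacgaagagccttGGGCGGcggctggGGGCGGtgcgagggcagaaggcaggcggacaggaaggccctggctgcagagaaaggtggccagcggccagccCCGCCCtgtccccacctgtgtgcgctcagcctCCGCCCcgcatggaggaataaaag
Krt8: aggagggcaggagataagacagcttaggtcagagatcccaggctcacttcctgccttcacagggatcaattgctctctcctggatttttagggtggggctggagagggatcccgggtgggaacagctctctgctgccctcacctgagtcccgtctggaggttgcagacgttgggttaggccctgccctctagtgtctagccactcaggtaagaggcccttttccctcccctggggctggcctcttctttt
Krt18: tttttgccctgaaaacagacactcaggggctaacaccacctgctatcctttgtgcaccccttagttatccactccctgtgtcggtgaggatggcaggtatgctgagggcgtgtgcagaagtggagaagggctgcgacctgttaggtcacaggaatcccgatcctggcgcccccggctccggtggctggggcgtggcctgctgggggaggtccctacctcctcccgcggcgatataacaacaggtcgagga
Muc1: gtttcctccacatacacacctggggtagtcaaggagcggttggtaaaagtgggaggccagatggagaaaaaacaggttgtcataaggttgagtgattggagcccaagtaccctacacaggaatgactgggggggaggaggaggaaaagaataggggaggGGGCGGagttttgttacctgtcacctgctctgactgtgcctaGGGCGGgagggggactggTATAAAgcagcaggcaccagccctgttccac
The Krt7 window held 4 matches to GGGCGG, and the Muc1 window 2 matches to GGGCGG and 1 to TATAAA, located 31 to 26 bases before the start site. The Krt8 and Krt18 windows held no match to any of the 3 motifs. The Cftr and Epcam windows, which are not shown, also held GGGCGG. No relation between the motifs and the changes was tested. Among 32851 promoter windows of the same 250 bases, 32.7% held GGGCGG, 12.4% TATAAA and 6.75% TGANTCA. A match is a description of the letters and not evidence that a factor binds there.

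The 7 genes did not form 1 level class. Krt7, Krt8, Krt18 and Epcam were abundant in all 19 libraries: Krt7 measured 60.4 to 403 FPKM, Krt18 54.9 to 239 FPKM, Krt8 38.3 to 201 FPKM and Epcam 22.7 to 136 FPKM. Krt7 stood above at least 93.4% of tested genes in every library, and Epcam above at least 88.6%. Krt19 was far lower, at 1.46 to 34.8 FPKM, and stood above 9.31 to 79.3% of tested genes. Muc1 ranged from 2.29 to 27.5 FPKM. Cftr was the lowest, at 0.04 to 0.18 FPKM in the 15 libraries whose tables list it, and never reached the 1 FPKM in 2 libraries that was required for testing, so 6 of the 7 genes were tested in each table.

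Among other genes that define duct cells, the transcription factors Sox9 and Onecut1 were also low. Sox9 ranged from 0.33 to 3.54 FPKM and Onecut1 from 0 to 0.41 FPKM. Other genes of the duct lists were not low throughout, as Tff2 ranged from 1.21 to 1486 FPKM and Spp1 from 32.9 to 963 FPKM. High Krt7, Krt8, Krt18 and Epcam thus stood beside low Cftr and Onecut1 but mixed levels of other duct genes. Whether the label of duct genes holds was not tested, and the genes are called by their names here. Of the 6 mesothelial markers, which share keratin expression, Lrrn4, Upk1b, Upk3b and Wt1 reached at most 0.27 FPKM, Gpm6a at most 2.99 FPKM and Msln 2.45 to 19.5 FPKM. Because islet pools are bulk samples, fewer cells of a type and less RNA per cell cannot be told apart in any of these levels.

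**Figure D1:**
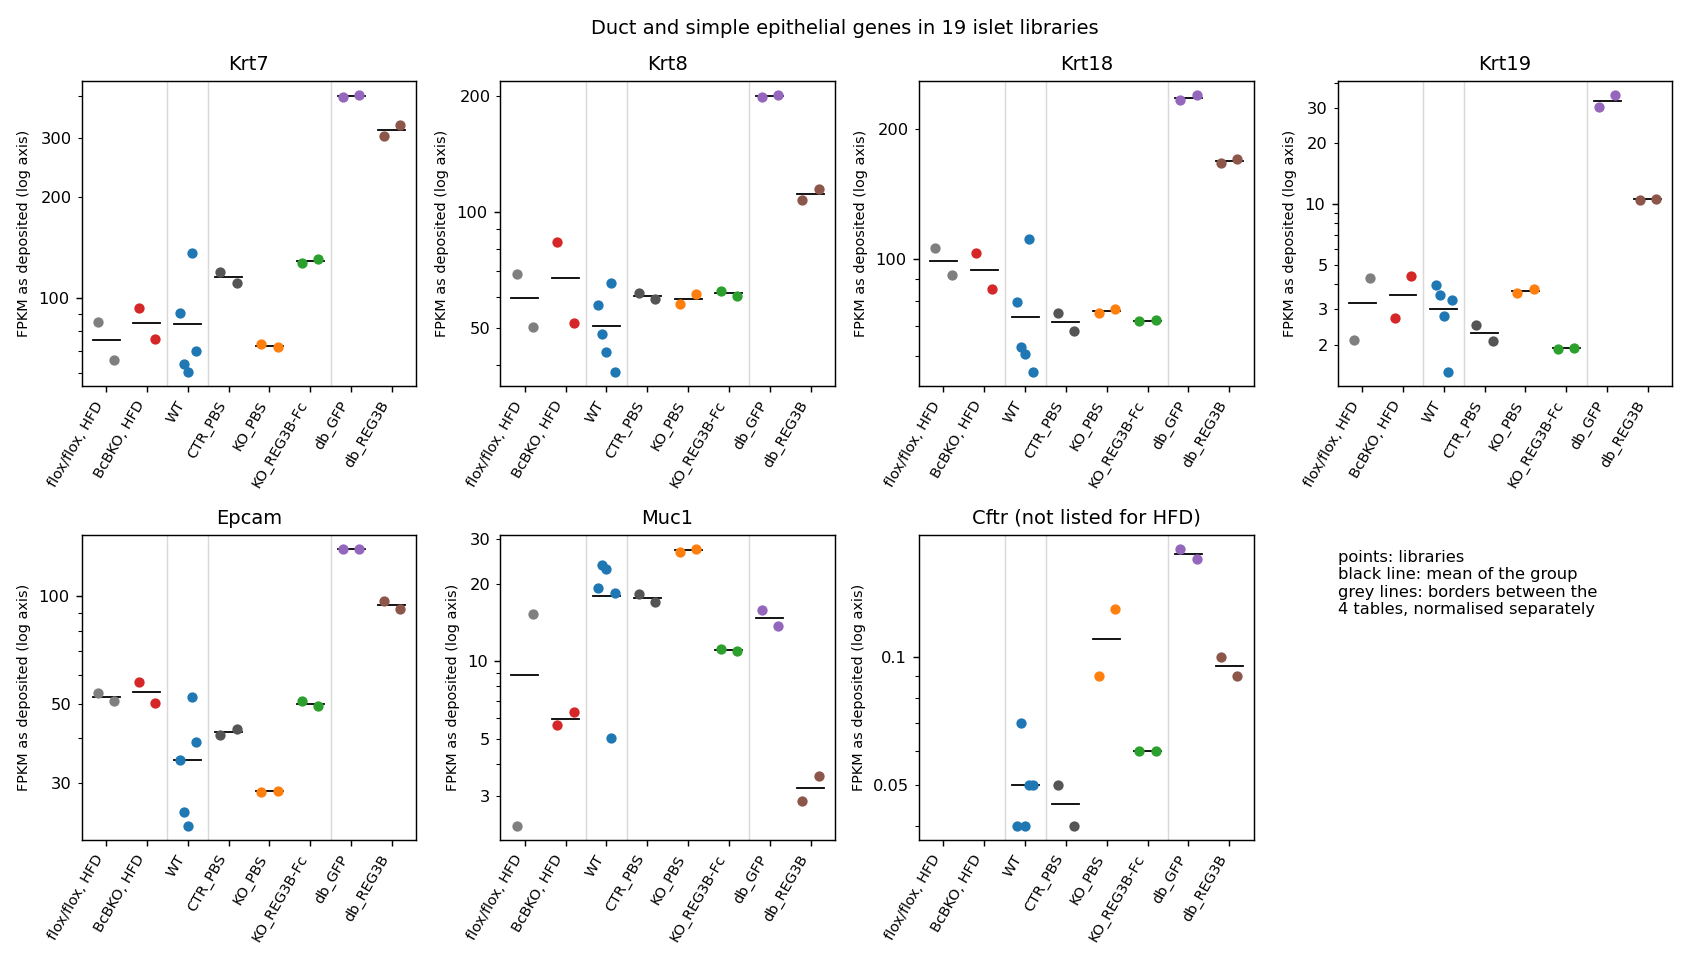
FPKM as deposited (log axis) of the 7 genes in each library (points) by group, with the group mean as a black line and grey lines between the 4 separately normalised tables. Krt7, Krt8, Krt18, Krt19 and Epcam are highest in db_GFP, Muc1 is highest in KO_PBS at 26.7 and 27.5 FPKM, and Cftr stays at or under 0.18 FPKM.

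The tables were normalised separately, so the order of groups across them is a description only. For Krt7, Krt8, Krt18, Krt19 and Epcam the db_GFP libraries were the highest, and db_REG3B followed them for all 5. Below the db groups, all other groups overlapped for Krt8, between 38.3 and 83.4 FPKM. For Krt18 the HFD groups overlapped each other at 85.4 to 106 FPKM and lay above the 3 groups of the PBS table, which spanned 68.4 to 76.8 FPKM, and the WT libraries enclosed all of these. For Krt7 the KO_REG3B-Fc and then the CTR_PBS libraries came next, KO_PBS overlapped flox/flox, and WT again enclosed every group outside the db table. For Krt19 the order in the PBS table was KO_PBS, CTR_PBS, KO_REG3B-Fc, while the HFD groups overlapped each other and WT. For Epcam the HFD groups overlapped at 50.3 to 57.3 FPKM, and WT enclosed CTR_PBS, KO_PBS and KO_REG3B-Fc. Muc1 had another order: KO_PBS was highest, and CTR_PBS, db_GFP and KO_REG3B-Fc followed without overlap, the last 2 at 10.9 to 15.9 FPKM. BcBKO came below them at 5.64 and 6.33 FPKM, and WT, at 5.05 to 23.7 FPKM, enclosed all of these but KO_PBS. The db_REG3B libraries were lowest at 2.87 and 3.58 FPKM apart from 1 flox/flox library at 2.29 FPKM. The other flox/flox library, at 15.4 FPKM, lay within the range of db_GFP.

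Among the 5 wild-type pools 1 library, replicate 4, stood apart in most of the genes on the deposited scale. Krt7 measured 90.4, 63.7, 60.4, 136 and 69.7 FPKM in WT replicates 1 to 5, and Krt18 measured 79.8, 62.6, 60.4, 111 and 54.9 FPKM. Krt8 measured 57.4, 48.1, 43.1, 65.4 and 38.3 FPKM, and Epcam 34.7, 24.9, 22.7, 52.0 and 39.1 FPKM. Replicate 4 was the highest library for all 4 of these genes on the deposited scale. After median scaling it stayed the highest for Krt7, Krt18 and Epcam, but Krt8 was at 52.1 in it, below 53.0, 58.2 and 55.9 in replicates 1 to 3. Muc1 measured 19.3, 23.7, 23.0, 5.05 and 18.5 FPKM, and Krt19 measured 3.98, 3.52, 2.78, 1.46 and 3.33 FPKM. Replicate 4 was the lowest library for both on either scale. Cftr measured 0.04, 0.07, 0.04, 0.05 and 0.05 FPKM.

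Replicate 4 also stood apart in the markers of other cells. Digestive enzymes and other acinar markers (18 of 19 listed, none at 0) made up 5.97% of summed FPKM in it and 20.2 to 39.3% in the other WT libraries, 9 beta cell markers 64.7% against 28.6 to 42.4%, and 7 alpha, delta and PP cell markers 4.69% against 0.969 to 1.95%. The part of these cells in the keratin and Muc1 levels was not tested. Leaving out replicate 4 moved the WT median of Muc1 from 19.3 to 21.1 FPKM and that of Krt7 from 69.7 to 66.7 FPKM. WT replicates 2 and 3 were the closest pair, with a robust SD of 0.0901.

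**Figure D2:**
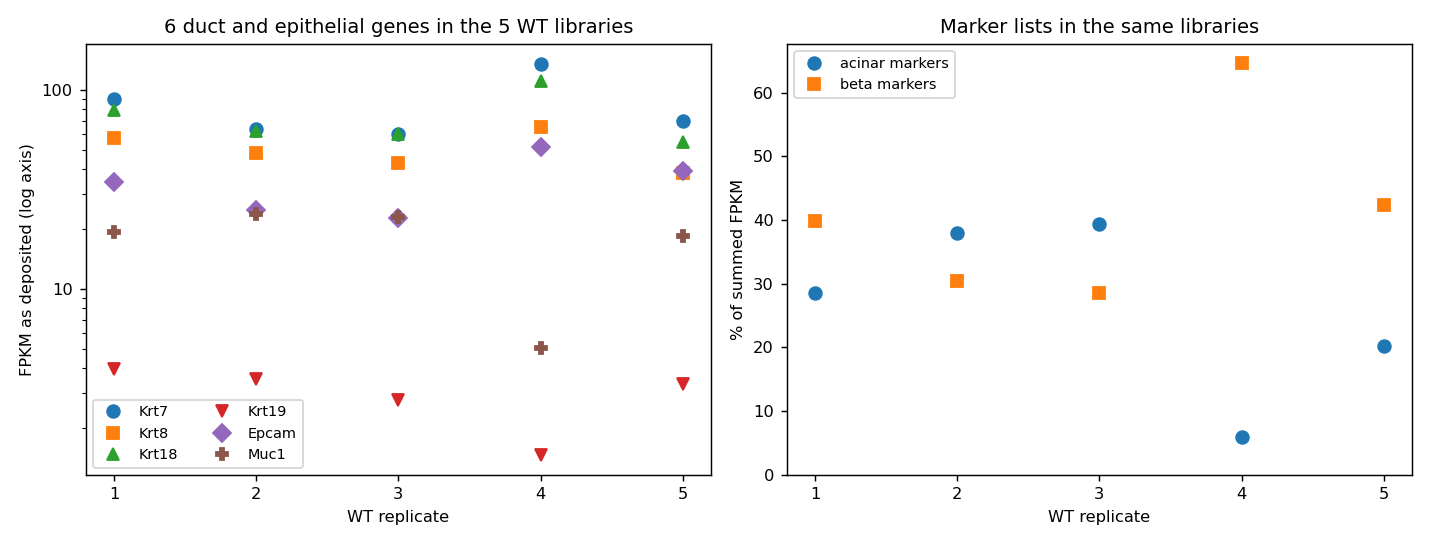
Left, FPKM (log axis) of 6 genes in WT replicates 1 to 5; right, the share of summed FPKM taken by acinar and by beta cell markers in the same libraries. On this deposited scale replicate 4 has the highest Krt7, Krt8 (not after median scaling), Krt18 and Epcam, the lowest Krt19 and Muc1, and the lowest acinar share (5.97%).

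On the high-fat diet none of the 6 tested genes passed the test between the libraries labelled BcBKO and flox/flox. The flox/flox libraries had 85.2 and 65.5 FPKM of Krt7, and the BcBKO libraries 93.5 and 75.8 FPKM. In the same order of groups Krt8 measured 68.9 and 50.3 FPKM against 83.4 and 51.3 FPKM, and Krt18 106 and 92.2 against 103 and 85.4 FPKM. In all 3 the groups overlapped, and replicate 1 was the higher library of each pair. Krt19 measured 2.11 and 4.31 FPKM against 2.70 and 4.39 FPKM, with replicate 2 the higher. Epcam measured 53.6 and 50.9 FPKM against 57.3 and 50.3 FPKM.

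The log2 changes on the diet lay between -0.17 (Krt18, SE 0.14) and 0.08 (Krt7, SE 0.17), and limma's adjusted p was 1 for all 6 genes. Few genes of any kind passed here, as limma called 0.00865% of all genes higher and 0% lower, with 295 of 11560 genes at an unadjusted p under 0.05. The groups overlapped for all 6 genes, while 27.5% of all tested genes did not overlap. By the authors' deposited table, 0 of 6 listed members passed, against 0.164% of its genes. Cftr is not listed in the HFD table.

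Muc1 was the least certain of the genes on the diet. Its flox/flox libraries were at 2.29 and 15.4 FPKM and its BcBKO libraries at 5.64 and 6.33 FPKM, so the flox/flox libraries enclosed both BcBKO libraries. Its log2 change was -0.15 (SE 0.76, 95% interval -2.10 to 1.80), and without flox/flox replicate 2 it turned to 1.04. The acinar markers (17 of 19 listed, none at 0) made up 2.19 and 7.91% of summed FPKM in flox/flox replicates 1 and 2 and 3.33 and 3.31% in BcBKO, lowest and highest in the same libraries as Muc1, and their part in it was not tested.

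In the PBS table the knockout islets given PBS had more Muc1 and Krt19 than the controls. Muc1 was at 18.4 and 17.0 FPKM in the CTR_PBS libraries, at 26.7 and 27.5 FPKM in those of KO_PBS, and at 11.2 and 10.9 FPKM in those of KO_REG3B-Fc. The KO_PBS libraries were the highest and the KO_REG3B-Fc libraries the lowest, with no overlap between groups. Krt19 was at 2.5 and 2.09 FPKM for CTR_PBS, 3.63 and 3.77 FPKM for KO_PBS, and 1.91 and 1.92 FPKM for KO_REG3B-Fc, in the same order of groups without overlap. In KO_PBS against CTR_PBS Muc1 rose by 1.10 (SE 0.05, adjusted p = 8.1e-07) and Krt19 by 0.93 (SE 0.07, adjusted p = 1.59e-05), and both also rose on the deposited scale, by 0.59 and 0.52.

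Krt8 and Krt18, the partner keratins, kept their deposited FPKM while the median gene fell. Krt8 was at 61.3 and 59.4 FPKM for CTR_PBS, 57.7 and 61.2 FPKM for KO_PBS, and 62.4 and 60.6 FPKM for KO_REG3B-Fc, and all 3 groups overlapped on that scale. Krt18 was at 75.3 and 68.4 FPKM for CTR_PBS, 75.0 and 76.8 FPKM for KO_PBS, and 72.0 and 72.5 FPKM for KO_REG3B-Fc. Relative to the median gene Krt18 rose by 0.60 (SE 0.05, adjusted p = 2.16e-05) and Krt8 by 0.50 (SE 0.04, adjusted p = 4.06e-05) in KO_PBS, whereas on the deposited scale Krt18 moved by 0.08 (adjusted p = 0.154) and Krt8 turned to -0.02 (adjusted p = 0.662).

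Krt7 and Epcam, the other abundant genes, followed the opposite course. Krt7 was at 119 and 111 FPKM for CTR_PBS, 73.1 and 71.5 FPKM for KO_PBS, and 127 and 131 FPKM for KO_REG3B-Fc, with both KO_PBS libraries the lowest. Epcam was at 40.8 and 42.4 FPKM for CTR_PBS, 28.3 and 28.5 FPKM for KO_PBS, and 50.7 and 49.3 FPKM for KO_REG3B-Fc, again lowest in KO_PBS. Most of this was shared with the median gene. Relative to it Krt7 fell by 0.14 in KO_PBS (SE 0.04, adjusted p = 0.0249), a call that was lost without CTR_PBS replicate 1 (adjusted p = 0.174), KO_PBS replicate 1 (0.0675) or KO_PBS replicate 2 (0.0764). Epcam moved by -0.02 (SE 0.04, adjusted p = 0.741) relative to the median gene and fell by 0.53 on the deposited scale (adjusted p = 3.6e-06).

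Counted together, 4 of the 6 tested genes were higher in KO_PBS than in CTR_PBS, against 24.6% of all genes, and 1 was lower, against 20.0%. Their median change was 0.55, beside 0.00 for all genes tested. On the deposited scale 2 were higher, against 8.66% of all genes, and 2 were lower, against 81.5%. The groups did not overlap for 5 of the 6, against 72.8% of all genes after median scaling. By the authors' deposited table, 5 of 7 listed members passed, 4 higher and 1 lower, against 25.9% of its genes.

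Given REG3B-Fc, the knockout islets had less of the genes that were high in KO_PBS. Against KO_PBS, Muc1 fell by 1.82 (SE 0.05, adjusted p = 5.08e-08) and Krt19 by 1.16 (SE 0.07, adjusted p = 4.76e-06), and both fell on the deposited scale too, by 1.22 and 0.69. Relative to the median gene Krt18 fell by 0.70 and Krt8 by 0.58 (adjusted p = 1.01e-05 and 1.91e-05), while on the deposited scale they moved by -0.07 and 0.05 without passing (adjusted p = 0.199 and 0.332), Krt8 with the opposite sign. Krt7 rose by 0.20 (SE 0.04, adjusted p = 0.00555) and Epcam by 0.18 (SE 0.04, adjusted p = 0.00869). Their rises on the deposited scale were 0.83 and 0.79.

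In that comparison 2 of 6 tested genes were higher, against 20.2% of all genes, and 4 were lower, against 24.7%, with a median of -0.64 beside 0.00 for all genes. On the deposited scale the counts were 2 higher, against 86.2%, and 2 lower, against 6.97%. The groups did not overlap for any of the 6 genes, as for 72.6% of all genes. By the authors' deposited table, 6 of 7 listed members passed, 2 higher and 4 lower, against 24.1% of its genes. This comparison and KO_PBS against CTR_PBS share the KO_PBS libraries, so the mirrored signs of Muc1, Krt19, Krt8, Krt18 and Krt7 are not independent of each other.

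REG3B-Fc treated knockout islets set against untreated controls differed in Muc1. It fell by 0.72 (SE 0.05, adjusted p = 7.99e-05), from 18.4 and 17.0 to 11.2 and 10.9 FPKM, and by 0.63 on the deposited scale. Epcam rose by 0.16 (SE 0.04, adjusted p = 0.0464), a call that was lost when any 1 of the 4 libraries was left out (adjusted p = 0.101 to 0.287). Krt19 moved by -0.23 (SE 0.07, adjusted p = 0.0739), Krt8 by -0.08 (adjusted p = 0.327), Krt18 by -0.09 (adjusted p = 0.269) and Krt7 by 0.06 (adjusted p = 0.453), and none of these passed. On the deposited scale Krt8 and Krt18 had the opposite sign (0.03 and 0.01), and Krt7 passed at 0.16 (adjusted p = 0.0366). Thus 1 of 6 was higher, against 5.47% of all genes, and 1 lower, against 5.30%, while the groups did not overlap for 5 of 6, against 57.7%. No table of the authors' own test of this pair was used.

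Markers of other cells moved in the same table. All 19 acinar markers were listed, none at 0, and made up 13.6 and 13.4% of summed FPKM for CTR_PBS, 28.2 and 29.2% for KO_PBS, and 11.5 and 11.6% for KO_REG3B-Fc, the group order of Muc1 and Krt19. Immune markers (9 of 9 listed) summed to 18.5 and 18.0 FPKM in CTR_PBS, with 3 and 1 of them at 0, to 158 and 152 FPKM for KO_PBS and to 25.7 and 26.1 FPKM in KO_REG3B-Fc. Stellate and fibroblast markers summed to 16.0 and 16.6, 44.6 and 44.7, and 27.4 and 25.3 FPKM in the same groups. Beta cell markers made up 60.4 and 61.3%, 40.9 and 40.2%, and 61.0 and 60.7%, lowest in KO_PBS as Krt7 and Epcam were, with CTR_PBS and KO_REG3B-Fc overlapping. Alpha, delta and PP cell markers (7 of 7 listed, none at 0) made up 0.802 and 0.796%, 0.704 and 0.751%, and 1.74 and 1.81%, and in KO_REG3B-Fc against CTR_PBS 7 of 7 were higher, with a median log2 change of 0.675 after median scaling. In that pair 15 of 19 acinar markers were lower, with a median log2 change of -0.32, while 5.47% of all genes were higher and 5.30% lower. Endothelial markers (5 of 5 listed) summed to 141 and 143, 110 and 110, and 142 and 132 FPKM. For 2 of these lists the direction in KO_PBS against CTR_PBS depended on the scale. Endothelial markers had 4 higher and 1 lower after median scaling (median 0.183), but 0 higher and 4 lower on the deposited scale. Alpha, delta and PP cell markers had 5 higher and 0 lower (median 0.282), against 1 higher and 6 lower as deposited. Of all genes 24.6% were higher and 20.0% lower after median scaling, and 8.66 and 81.5% as deposited. The part of these cells in the changes of the 6 genes was not tested.

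Cftr, too low for the test, was at 0.05 and 0.04 FPKM for CTR_PBS, 0.09 and 0.13 FPKM for KO_PBS, and 0.06 FPKM in both libraries of KO_REG3B-Fc. The KO_PBS libraries were the highest. With no filter on low values limma called it higher in KO_PBS than in CTR_PBS (0.13, adjusted p = 0.0165) and lower in KO_REG3B-Fc than in KO_PBS (-0.12, adjusted p = 0.0236), and in the authors' deposited table neither passed (adjusted p = 0.054 and 0.0875). The counting error of values this small is unknown.

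**Figure D3:**
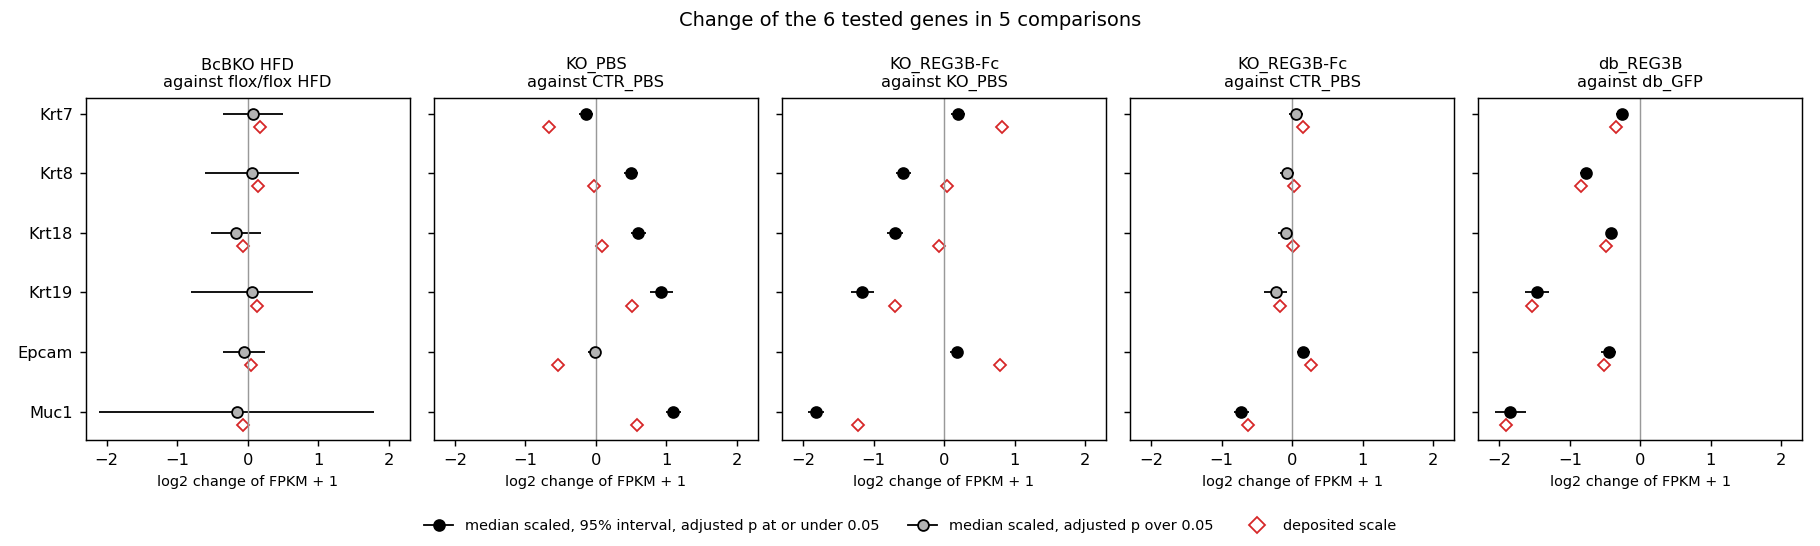
Log2 change of FPKM + 1 for 6 genes in 5 comparisons, with the 95% interval after median scaling (circles, black where adjusted p is at or under 0.05) and the change on the deposited scale (red diamonds). In KO_PBS and KO_REG3B-Fc the scales differ by about the shift of the median gene, which takes Krt8 from 0.50 to -0.02 in KO_PBS, and all 6 genes are lower in db_REG3B on both scales.

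In db islets all 6 tested genes were lower with REG3B than with GFP. Muc1 measured 15.9 and 13.7 FPKM in db_GFP and 2.87 and 3.58 FPKM in db_REG3B, and Krt19 measured 30.3 and 34.8 FPKM in db_GFP and 10.5 and 10.6 FPKM in db_REG3B. In both genes the groups lay far apart compared with the gap between replicates. Muc1 fell by 1.84 (SE 0.10, adjusted p = 4.44e-06) and Krt19 by 1.46 (SE 0.07, adjusted p = 3.12e-06).

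The abundant keratins fell less. Krt8 measured 199 and 201 FPKM in db_GFP and 107 and 115 FPKM in db_REG3B, a fall of 0.77 (SE 0.04, adjusted p = 3.04e-06). Krt18 measured 233 and 239 FPKM in db_GFP and 167 and 170 FPKM in db_REG3B, and Krt7 measured 396 and 403 FPKM against 305 and 327 FPKM. Krt18 fell by 0.41 (adjusted p = 6.21e-05) and Krt7 by 0.27 (adjusted p = 6.96e-04). Epcam measured 136 and 136 FPKM in db_GFP and 97.0 and 92.0 FPKM in db_REG3B, and fell by 0.45 (adjusted p = 1.55e-04). Cftr measured 0.18 and 0.17 FPKM in db_GFP and 0.10 and 0.09 FPKM in db_REG3B, and with no filter it did not pass (adjusted p = 0.115).

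Lower calls took in 25.6% of all genes and higher calls 20.7% in the db comparison, and 73.9% of genes had groups that did not overlap, as all 6 of these did. Their median change was -0.61, beside 0.01 for all genes, and the median gene shifted by only -0.06 on the deposited scale, where the 6 falls stood as well. By the authors' deposited table, 6 of 7 listed members passed, all lower, against 27.4% of its genes.

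Acinar markers (18 of 19 listed) took a small share of summed FPKM in db islets. It was 0.108 and 0.105% in db_GFP and 0.0504 and 0.0509% in db_REG3B, with 2 markers at 0 in db_REG3B replicate 2. The markers still summed to 1004 and 991 FPKM in db_GFP and 591 and 613 FPKM in db_REG3B. Of 16 tested, 11 were lower and 3 higher, where 25.6% of all genes were lower and 20.7% higher. Stellate and fibroblast markers summed to 1320 and 1303 FPKM in db_GFP and 227 and 240 FPKM in db_REG3B, and 7 of 7 were lower. Immune markers summed to 519 and 528 FPKM in db_GFP against 230 and 238 FPKM in db_REG3B. Most of this sum was Lyz2, at 480 and 489 FPKM against 211 and 216 FPKM. Of 5 immune markers tested, 4 were lower and 1 was higher. Beta cell markers took 40.6 and 40.8% against 59.5 and 59.7%. Alpha, delta and PP cell markers went from 7.89 and 7.98% for db_GFP to 4.03 and 4.00% for db_REG3B, with 6 of 7 lower. Endothelial markers summed to 68.5 and 67.3 FPKM against 33.7 and 36.1 FPKM, with 5 of 5 lower. Of 6 tested duct markers beside the members, 4 were lower, 0 were higher and 2 did not pass, with log2 changes from -1.55 to 0.03. Among the duct markers, the factor Sox9 measured 3.54 and 3.35 FPKM in db_GFP and 0.50 and 0.45 FPKM in db_REG3B. The part of these cells in the keratin, Muc1 and Epcam levels was not tested.

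Ratios between genes of a library do not depend on how libraries are scaled. Krt7 over Krt8, the 2 type II chains, was 1.95 and 1.88 for CTR_PBS, 1.27 and 1.17 for KO_PBS, and 2.04 and 2.16 for KO_REG3B-Fc. KO_PBS did not overlap either group. The same ratio was 1.99 and 2.01 in db_GFP and 2.85 and 2.85 in db_REG3B, 1.24 and 1.30 in flox/flox, 1.12 and 1.48 in BcBKO, and 1.32 to 2.08 in WT. Krt18 over Krt8, the pair of simple epithelia, varied less in the PBS table, at 1.23 and 1.15 for CTR_PBS, 1.30 and 1.26 for KO_PBS, and 1.15 and 1.2 for KO_REG3B-Fc, but separated db_GFP (1.17 and 1.19) from db_REG3B (1.56 and 1.49).

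Krt19 contributed a small share of type I keratin (Krt18 plus Krt19). The share was 3.21 and 2.96% for CTR_PBS, 4.61 and 4.68% for KO_PBS, and 2.58% in both libraries of KO_REG3B-Fc, and it was largest in db_GFP at 11.5 and 12.7% against 5.92 and 5.88% in db_REG3B. Both type II chains together over both type I chains gave 2.32 and 2.42 for CTR_PBS, 1.66 and 1.65 for KO_PBS, and 2.57 in both libraries of KO_REG3B-Fc. Muc1 over Krt19, the 2 genes that changed most, was 7.35 and 8.13 for CTR_PBS, 7.34 and 7.30 for KO_PBS, and 5.85 and 5.70 for KO_REG3B-Fc, but 0.525 and 0.394 in db_GFP and 0.274 and 0.336 in db_REG3B. With 2 libraries against 2 an exact permutation test of a ratio cannot go below p = 0.333, so none was run.

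**Figure D4:**
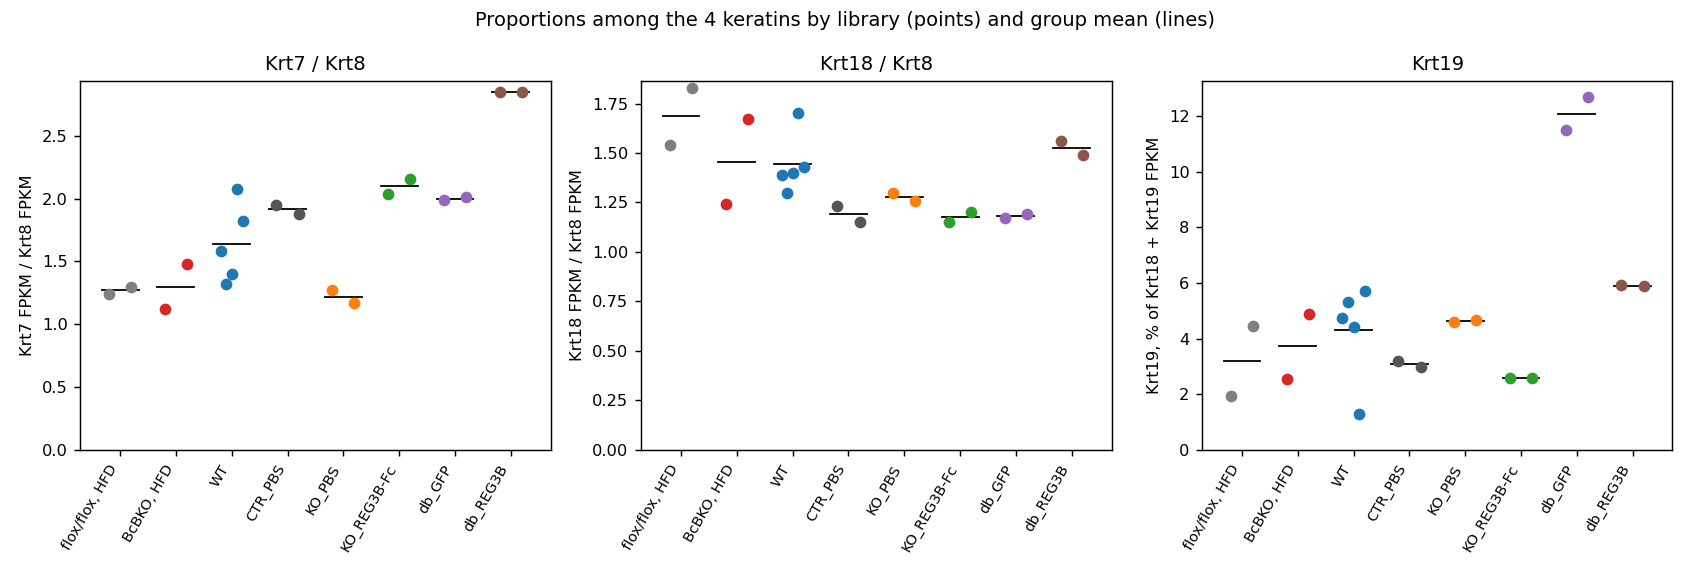
Krt7 over Krt8, Krt18 over Krt8, and Krt19 as a percentage of Krt18 plus Krt19 FPKM, by library (points) with group means (lines), all from 0. Krt7 over Krt8 is lowest among the PBS table's groups in KO_PBS (1.27 and 1.17) and reaches 2.85 in both db_REG3B libraries, while the Krt19 share peaks in db_GFP at 11.5 and 12.7%.

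Further genes of duct cells were counted from a list of 13, of which 8 could be tested in the PBS table. In KO_PBS against CTR_PBS 6 were higher and 1 lower, against 24.6 and 20.0% of all genes, with a median of 0.47. The water channel Aqp1 rose by 1.78, from 3.90 and 3.70 to 10.7 and 11.0 FPKM, and the trefoil peptide Tff2 by 1.51, from 568 and 593 to 1118 and 1178 FPKM. Tff2 was at 1.21 to 5.37 FPKM in db islets, where acinar markers made up at most 0.108% of summed FPKM. Which cells Tff2 came from was not tested. The matrix protein Spp1 fell by 1.90, from 444 and 427 to 82.0 and 78.2 FPKM. In KO_REG3B-Fc against KO_PBS 1 was higher and 6 lower (median -0.62), against 20.2 and 24.7% of all genes. Set against CTR_PBS, 2 were higher and 2 lower (median -0.03), where 5.47% of all genes were higher and 5.30% lower. In db_REG3B 0 of 9 were higher and 7 lower (median -0.84), against 20.7 and 25.6% of all genes, with Spp1 down by 1.66. On the high-fat diet 0 of 6 passed. On the deposited scale the count in KO_PBS was 4 higher and 3 lower, against 8.66 and 81.5% of all genes. In KO_REG3B-Fc against KO_PBS it was 4 higher and 4 lower, against 86.2 and 6.97% of all genes.

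Epithelial junction genes and regulators, 19 in all and 18 tested in each table, were divided. In KO_PBS 8 were higher and 6 lower, against 24.6 and 20.0% of all genes, with a median of 0.05. On the deposited scale 0 were higher and 14 lower, against 8.66 and 81.5% of all genes. The tight junction gene Cldn3 rose by 0.52 relative to the median gene with deposited levels of 23.6 and 24.2 FPKM (CTR_PBS) against 24.1 FPKM in both KO_PBS libraries, where its deposited change of 0.01 did not pass. The tight junction scaffold Tjp1 fell by 0.39 and the desmosome gene Dsp by 0.31, and both fell on the deposited scale as well. In KO_REG3B-Fc against KO_PBS 3 were higher and 10 lower after median scaling, against 20.2 and 24.7% of all genes. On the deposited scale 13 were higher and 0 lower, against 86.2 and 6.97% of all genes.

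In db_REG3B 2 of the 18 junction genes and regulators were higher and 8 lower, with a median of -0.10. Of all genes 20.7% were higher and 25.6% lower. The junction plaque gene Jup fell by 0.83, from 62.5 and 61.5 to 31.4 and 34.0 FPKM, and the membrane protease St14 by 0.82, from 42.4 and 42.1 to 22.3 and 22.5 FPKM. The epithelial transcription factor Elf3 rose by 0.55 and the splicing regulator Esrp1 by 0.23, so that epithelial genes as a class did not all follow the keratins. Against CTR_PBS, KO_REG3B-Fc had 0 higher and 4 lower, against 5.47 and 5.30% of all genes. On the high-fat diet 0 of 18 passed.

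**Figure D5:**
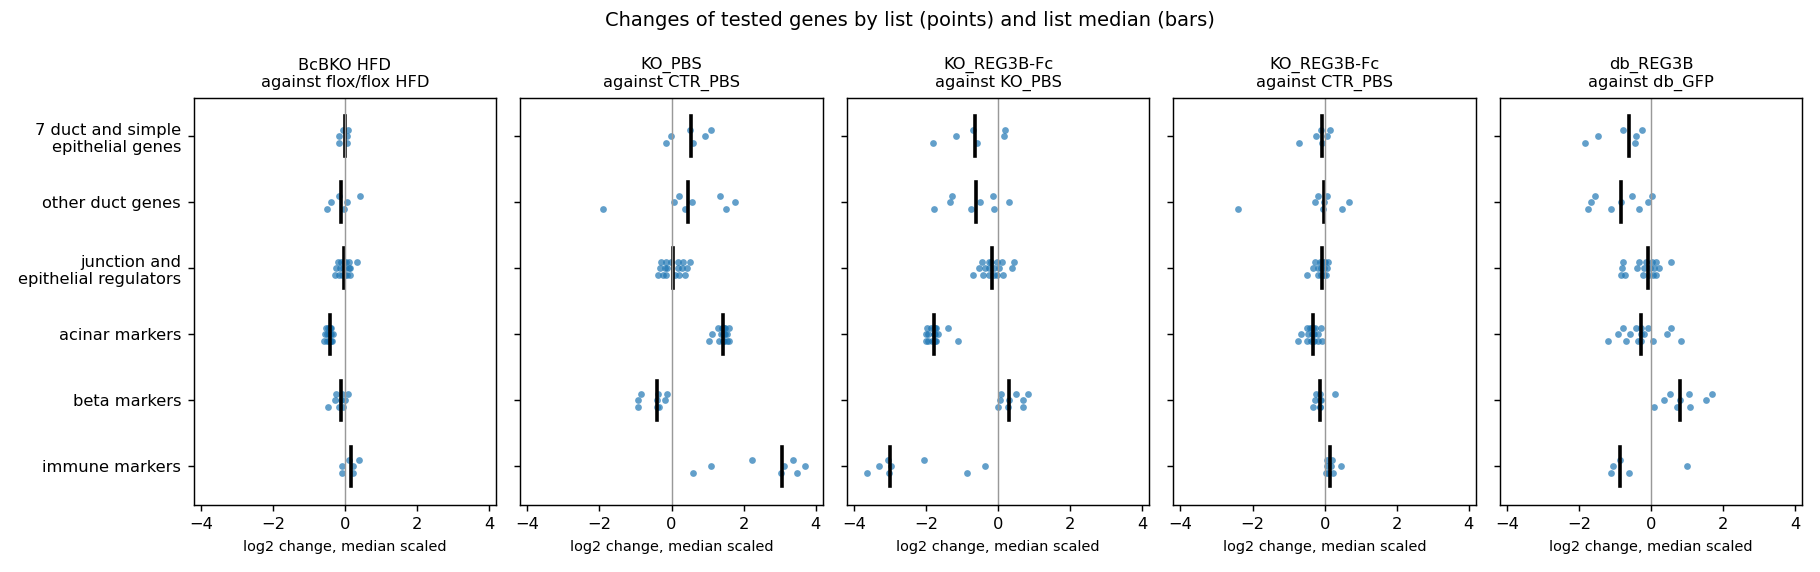
Log2 change after median scaling of each tested gene (points) in 6 lists, with the list median (bar), for the 5 comparisons. The duct and simple epithelial genes have medians of 0.55 in KO_PBS, -0.64 in KO_REG3B-Fc against KO_PBS and -0.61 in db_REG3B, while junction genes and regulators stay near 0 with medians of 0.05, -0.16 and -0.10.

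The genes whose pattern was most like that of a member were sought over all 19 libraries, after median scaling and centring within each table, among genes of at least 5 FPKM on average in each table. Likeness was the root mean square difference in log2(FPKM + 1), and it is given for the 3 members that varied most. For Muc1, whose profile had an SD of 0.86, these were Try5 (0.277), Cdc42ep1 (0.298) and 2210010C04Rik (0.301), against a median of 0.883 over all 5923 candidates. Try5 belongs to the trypsinogen family, whose near-identical copies can share reads. For Krt19 (SD 0.52) they were Gas6 (0.147), Msn (0.168) and S100a16 (0.188), against a median of 0.554. For Krt8 (SD 0.30) they were Plekhb1 (0.133), H2-T22 (0.138) and Slc9a3r1 (0.138), against 0.336. The libraries of a table share their normalisation, and no test was made of these likenesses.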

How the data were processed

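Islet messenger RNA was sequenced from pools of at least 3 mice, per the labels' protocols. The authors deposited FPKM for 19 libraries in 4 tables and, for the 4 HFD libraries, TPM, which were not tested. Also deposited are the log2 fold changes of their own comparisons, each with its p-value and adjusted p-value. DESeq2 is the source of these per the file headers, though the HFD table names no tool. The submitters' processing notes name the build GRCm38.p6. Which aligner and counter were used is not given in the sources used here. The 6 chow libraries were not analysed here. Of the WT lines, those with a missing value (275) and those that repeat an identifier (50) were set aside.

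The 7 genes were taken by symbol and the lists by symbol in each table. Values were median scaled (each library divided by its median ratio to the geometric mean library), and log2(FPKM + 1) was tested in R 4.3.3 by limma 3.58.1 (empirical Bayes, trend, two-sided, Benjamini-Hochberg over all genes tested, threshold 0.05) where 2 or more libraries of a table reached 1 FPKM, with its groups in 1 fit. The test was checked on simulated data. Intervals are 95%. Alternatives were the deposited scale, no filter, a pseudocount of 0.1, a block for the replicate number, fits of only the libraries compared, and fits without each library. All 7 members are named. From other lists, only passing genes with at least 5 FPKM and the 2 largest changes in a direction were named, besides markers that define a cell type. Members and lists were chosen with earlier results of these data known. The values of 1 gene of the duct marker lists are not reported here.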

Additional observations from a re-analysis of the deposited data

Results flagged for a closer look

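Muc1 in WT replicate 4 measured 5.05 FPKM, against 18.5 to 23.7 FPKM in the other 4 WT libraries. On the deposited scale its gap to the nearest library was 0.721 of the group's whole range, above the limit of 0.71 for 5 libraries. All 7 genes were examined on that scale in WT, the only group large enough. Muc1 was the only one past the limit there, and chance flags about 1 in 20 groups. After median scaling Muc1 was at 4.02 in replicate 4 and at 15.9 to 29.8 in the others, a smaller gap relative to the range. The limit was not applied to any gene after median scaling. On the deposited scale replicate 4 was also the extreme library in Krt19, Krt7, Krt18, Krt8 and Epcam, with gaps of 0.524, 0.603, 0.558, 0.296 and 0.443 of the range.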

How the results depend on the processing

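The number of members passing for KO_REG3B-Fc against CTR_PBS went from 2 to 1 with no filter, with the replicate number as a block (Epcam adjusted p = 0.0568), and when each library was left out in turn (1 in all 4). In the other comparisons it stayed within 1.5 times the value reported under every alternative run, at 4 to 6 for KO_PBS, 4 to 7 for KO_REG3B-Fc against KO_PBS, 6 in db and 0 on the high-fat diet. On the deposited scale 5 changes had the opposite sign: Epcam on the high-fat diet (0.04), Krt8 in KO_PBS (-0.021), in KO_REG3B-Fc against KO_PBS (0.048) and against CTR_PBS (0.026), and Krt18 in KO_REG3B-Fc against CTR_PBS (0.009). This follows from the shift of the median gene, by which the scales differ. Leaving out 1 library at a time turned the sign of 5 genes on the high-fat diet, with ranges of -0.352 to 0.484 for Krt19, -0.071 to 0.23 for Krt7, -0.268 to 0.392 for Krt8, -1.347 to 1.043 for Muc1 and -0.124 to 0.03 for Epcam, and of Epcam in KO_PBS (-0.057 to 0.017). None of these passed under any setting but the deposited scale, and the cause was not tested. Replicate numbers were not treated as pairing libraries: differences between replicates correlated at 0.67 between the HFD groups, over 2 pairs only, and at -0.0507 to 0.0469 in the other pairs of groups, and the block changed no other call. Depth is unknown, so counting error could not be set apart for Cftr or Krt19.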
